A study of Mus musculus with 6 samples.

Results

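The genes described here were 8 genes of osteocytes and of the mineralization of bone and cartilage matrix: Dmp1, Mepe, Phex, Sost, Fam20c, Enpp1, Ank and Phospho1. They were chosen by name, as the rows of the expression table that carry these symbols, and made up 8 of the 34709 genes in the table. All 8 were expressed above the limit for testing, a mean of 0.5 FPKM (fragment counts corrected for transcript length and for library size), as were 15373 genes in all. Articular cartilage was taken from KO mice and wildtype mice, with 3 libraries labelled KO and 3 labelled wildtype. Per the study's methods the animals were male and the KO line was on C57BL/6J. The column names of the table carry an age of 18 months for both groups. The sources call the line a KO and give no Cre driver, transgene or treatment for either group. The study's methods call the samples of its experiments independent. Whether RNA of several animals was pooled into a library was not stated, so p-values measure the spread between libraries, which may be technical.

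Osteocytes are the cells that bone-forming osteoblasts become once they are walled into mineralized matrix. They secrete sclerostin, the product of Sost, which binds Wnt co-receptors and restrains bone formation, and they control phosphate in the blood through Phex, Dmp1 and the hormone Fgf23. Mineral forms where phosphate outweighs its inhibitor pyrophosphate: Phospho1 frees phosphate inside matrix vesicles, whereas Enpp1 makes pyrophosphate and Ank brings ATP or pyrophosphate out of the cell. Uncalcified articular cartilage holds no osteocytes, whereas the subchondral bone beneath it does.

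None of the 8 genes passed the test between KO and wildtype in the comparison of all libraries, and the KO libraries differed among themselves. Dmp1, Mepe and Sost were 2.20-fold, 2.95-fold and 4.82-fold higher in the library labelled KO replicate 1 than in the mean of KO replicates 2 and 3. The same ratio was 1.004 for Phex, the remaining osteocyte gene, 1.21 for Fam20c, 0.870 for Phospho1, 1.75 for Ank and 1.80 for Enpp1. In KO replicates 2 and 3, 7 of the 8 genes, all but Phospho1, lay below all 3 wildtype libraries in FPKM, as did 25.8% of all genes tested.

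Libraries held between 52268311 and 63331135 counts. The median squared difference between KO replicates 2 and 3 was 5.77 times that expected of counting noise on the deposited counts. For the other 14 of the 15 pairs of libraries it was 23.7 to 85.4 times. The counts of KO replicates 2 and 3 were therefore averaged and entered as 1 sample, although the study calls its samples independent. On the first principal component, which held 45.9% of the variance, the library labelled KO replicate 1 lay at -24.6, within the wildtype libraries (-26.2 to -23.9), while KO replicates 2 and 3 lay at 50.7 and 49.6. The targeted gene had 62, 22 and 17 counts in KO replicates 1, 2 and 3 and 56, 46 and 49 counts in wildtype replicates 1, 2 and 3, all under 0.1 FPKM. The library labelled KO replicate 1 was thus not below the wildtype libraries in the targeted gene, and the log2 differences of the 8 genes and the calls and medians of the gene lists are given with and without it.

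The osteocyte genes sit in different parts of the genome (positions in GRCm38). Dmp1 (chr5:104202613-104214102, plus strand, 6 exons in the principal transcript) and Mepe (chr5:104325329-104338611, plus strand, 3 exons) belong to the SIBLING cluster, in which 5 acidic matrix phosphoproteins lie in a row over 270.3 kb. Phex (chrX:157162075-157415286, minus strand, 22 exons) encodes a membrane endopeptidase, and Sost (chr11:101962458-101967015, minus strand, 2 exons) is the shortest of the 8 genes. The genes of phosphorylation and of pyrophosphate are Fam20c (chr5:138754514-138810077, plus strand, 10 exons), Enpp1 (chr10:24637914-24712159, minus strand, 25 exons), Ank (chr15:27466677-27594909, plus strand, 12 exons) and Phospho1 (chr11:95824499-95832140, plus strand, 3 exons).

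The sequences just upstream of Dmp1, Mepe and Sost are shown because these genes differed by more than 2-fold between KO replicate 1 and the other KO libraries. So did 8.2% of all genes tested. The sequence of Ank is beside them, as the gene of the 8 with the smallest adjusted p in the comparison without KO replicate 1. Each is the 250 bases before the RefSeq start site (GRCm38.p6), 5′ to 3′ on the strand of the gene, and all 8 genes were matched by symbol. Capitals mark the motifs searched on both strands: the RUNX core TGTGGT, bound by the bone factor Runx2 and its relatives, the TATA box TATAAA, and the homeodomain core TAATTA. On the other strand the RUNX core reads ACCACA and the TATA box TTTATA, whereas the homeodomain core is its own reverse complement. The windows lie at chr5:104202367-104202616 (Dmp1), chr5:104325079-104325328 (Mepe), chr11:101967016-101967265 (Sost) and chr15:27466427-27466676 (Ank).
Dmp1: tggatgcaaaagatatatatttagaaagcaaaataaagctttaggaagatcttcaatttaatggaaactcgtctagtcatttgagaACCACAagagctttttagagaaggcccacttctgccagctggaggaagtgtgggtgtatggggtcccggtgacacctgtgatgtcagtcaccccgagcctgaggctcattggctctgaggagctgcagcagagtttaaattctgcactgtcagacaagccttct
Mepe: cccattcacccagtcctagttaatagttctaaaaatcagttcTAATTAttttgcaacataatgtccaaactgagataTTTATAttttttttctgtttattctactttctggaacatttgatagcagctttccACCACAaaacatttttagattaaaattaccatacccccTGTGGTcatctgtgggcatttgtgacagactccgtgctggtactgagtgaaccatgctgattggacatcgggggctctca
Sost: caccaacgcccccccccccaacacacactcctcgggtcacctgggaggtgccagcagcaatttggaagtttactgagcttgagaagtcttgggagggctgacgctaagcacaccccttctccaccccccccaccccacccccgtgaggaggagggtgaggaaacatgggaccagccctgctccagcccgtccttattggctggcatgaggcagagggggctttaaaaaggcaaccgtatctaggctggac
Ank: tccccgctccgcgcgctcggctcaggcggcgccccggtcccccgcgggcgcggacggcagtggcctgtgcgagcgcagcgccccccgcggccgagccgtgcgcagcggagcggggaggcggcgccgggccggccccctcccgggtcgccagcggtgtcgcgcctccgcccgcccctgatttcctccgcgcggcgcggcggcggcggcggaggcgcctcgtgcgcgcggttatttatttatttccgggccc

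The RUNX core was found in 3 of the 8 promoters, against 14.0% of all 32817 promoters in the table. It began 164 bases upstream of the start in Dmp1, at 118 and 80 bases in Mepe and at 144 bases in Enpp1. The TATA box letters (12.4% of all promoters) and the homeodomain core (4.85%) were each found in 1 of the 8, Mepe. Sost and Ank held none of these letters in the window, from which nothing follows about the factors. The promoters differed in base composition, with 45.6% GC in Dmp1, 38.0% in Mepe, 39.2% in Phex, 61.2% in Sost and in Enpp1, 75.6% in Phospho1 and 81.2% in Ank, beside a median of 52.4% over all promoters. The RefSeq window of Fam20c (81.2% GC) lay inside the gene as the expression table delimits it and is not shown.

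In wildtype cartilage the 8 genes fell into 2 tiers of level. Dmp1 averaged 46.5 ± 23.2 FPKM (SD, n = 3), Mepe 42.3 ± 19.3 FPKM, Sost 30.3 ± 7.64 FPKM and Ank 29.1 ± 1.13 FPKM. The lower tier held Enpp1 at 8.93 ± 0.863 FPKM, Phex at 6.79 ± 3.68 FPKM, Phospho1 at 5.81 ± 2.21 FPKM and Fam20c at 4.16 ± 1.57 FPKM. The step between Ank and Enpp1 was the only pair of neighbours in this order whose 3 libraries did not overlap. The highest wildtype library was 2.81 times the lowest for Phex, 2.26 times for Dmp1, 2.23 times for Phospho1 and 2.19 times for Mepe, against 1.08 times for Ank. For Dmp1, Mepe and Phex the highest was wildtype replicate 1, at 2.21, 2.07 and 2.31 times the mean of wildtype replicates 2 and 3.

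**Figure D1:**
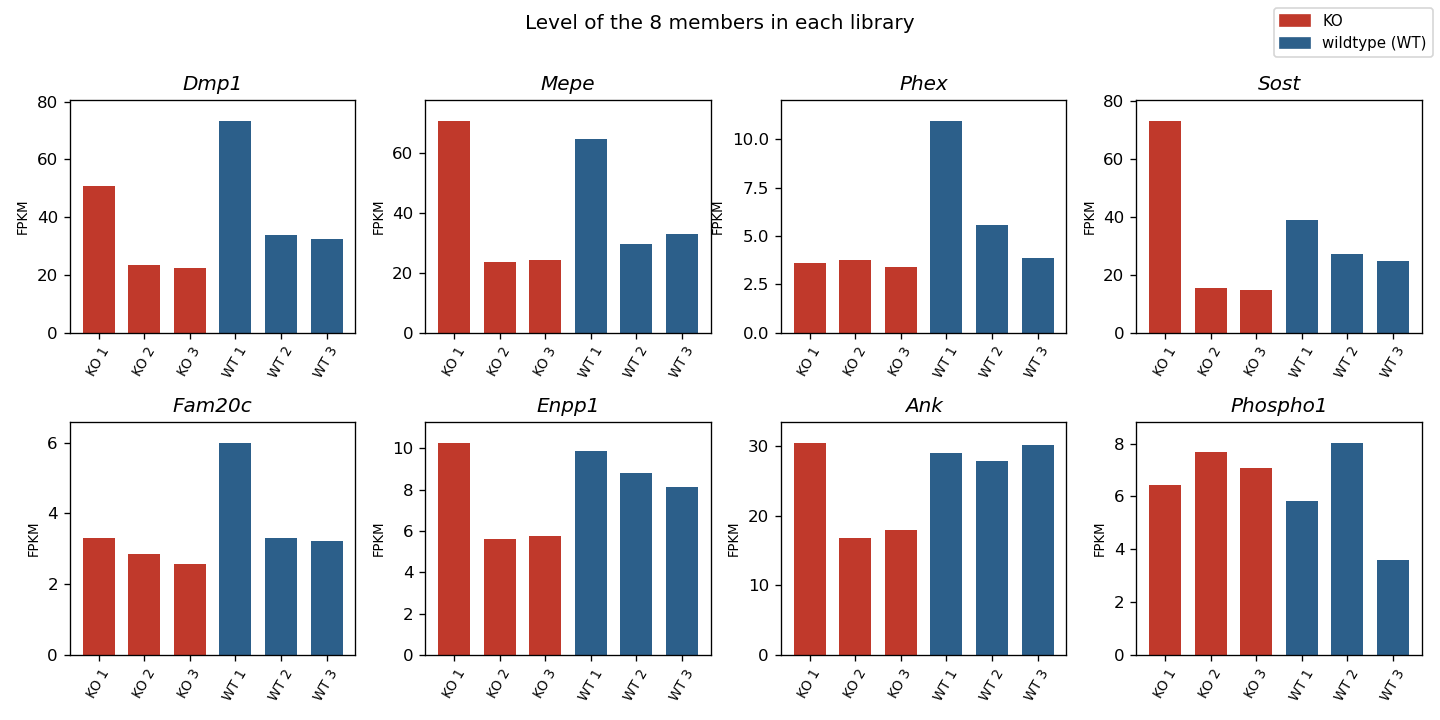
Level in FPKM (vertical axis, from 0, its own scale in each panel) of each of the 8 genes in the 3 KO (red) and 3 wildtype (blue) libraries, 1 bar a library. Sost reached 73.0 FPKM in KO replicate 1 and stood at 15.5 and 14.8 FPKM in KO replicates 2 and 3, while Phex stayed between 3.39 and 3.78 FPKM in all 3.

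Sost, the Wnt inhibitor of mature osteocytes, spanned the widest range. It was at 73.0, 15.5 and 14.8 FPKM in KO replicates 1, 2 and 3 and at 38.97, 27.2 and 24.6 FPKM in wildtype replicates 1, 2 and 3. The library labelled KO replicate 1 was thus the highest of all 6 and the other 2 KO libraries the lowest, with the wildtype libraries between them. The log2 difference, KO minus wildtype, was 0.60 (SE 0.573, adjusted p = 0.745). It was -1.03 without KO replicate 1 (SE 0.263, adjusted p = 0.0935) and 1.36 without KO replicates 2 and 3 (adjusted p = 0.253), so that 1 library set its direction.

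Dmp1 encodes an acidic phosphoprotein that binds calcium and collagen and whose loss leads to phosphate wasting. Its level was 50.7, 23.5 and 22.5 FPKM in KO replicates 1, 2 and 3 and 73.2, 33.9 and 32.4 FPKM in wildtype replicates 1, 2 and 3. The groups overlapped, as the first library of each group was the highest within it. The log2 difference was -0.28 (SE 0.448, adjusted p = 0.873). It was -1.04 without KO replicate 1 (adjusted p = 0.277), and without wildtype replicate 1 it turned to 0.17.

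Mepe, whose acidic peptide restrains mineralization, was at 70.5, 23.4 and 24.3 FPKM in KO replicates 1, 2 and 3. In wildtype replicates 1, 2 and 3 it was at 64.4, 29.4 and 33.0 FPKM. As for Dmp1, the highest library of each group stood well apart and the other 2 KO libraries were below all wildtype libraries. The log2 difference was 0.22 (SE 0.495, adjusted p = 0.922) and turned to -0.85 without KO replicate 1 (adjusted p = 0.322).

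Phex, the endopeptidase that is mutated in X-linked hypophosphatemia, had the smallest unadjusted p of the 8 genes. It was at 3.60, 3.78 and 3.39 FPKM in KO replicates 1, 2 and 3 and at 10.9, 5.56 and 3.88 FPKM in wildtype replicates 1, 2 and 3. All 3 KO libraries were below all wildtype libraries, though the highest KO and the lowest wildtype library were close. Phex was the 1 gene of the 8 whose groups did not overlap, a pattern shown by 25.0% of all genes tested. The log2 difference was -0.89 (SE 0.389, adjusted p = 0.380). It stayed below 0 whichever library was left out, between -1.15 and -0.40, with the value nearest 0 obtained without wildtype replicate 1.

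Fam20c is the Golgi kinase that phosphorylates secreted proteins, the SIBLING proteins among them. Its level was 3.30, 2.86 and 2.58 FPKM in KO replicates 1, 2 and 3 and 5.98, 3.31 and 3.21 FPKM in wildtype replicates 1, 2 and 3. Wildtype replicate 1 stood above the other 5 libraries, which lay close together. The log2 difference was -0.44 (SE 0.288, adjusted p = 0.595), and -0.64 without KO replicate 1 (adjusted p = 0.381).

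Enpp1 and Ank, which supply extracellular pyrophosphate, had the most alike profiles of any pair among the 8 genes. Their root mean square difference over the 6 libraries was 0.126 on the log2 scale, against 0.275 for Dmp1 and Mepe and 0.297 for Mepe and Sost. Each was nearer still to a gene outside the 8, Ank to Nr1h3 (0.0356) and Enpp1 to Bmp5 (0.0553). Such distances tend to be small for genes of narrow range, and the ranges of Enpp1 and Ank were the narrowest of the 8. Enpp1 was at 10.2, 5.63 and 5.75 FPKM in KO replicates 1, 2 and 3 and at 9.86, 8.79 and 8.15 FPKM in wildtype replicates 1, 2 and 3. Ank was at 30.4, 16.8 and 17.9 FPKM in KO replicates 1, 2 and 3 and at 29.0, 27.9 and 30.2 FPKM in wildtype replicates 1, 2 and 3. For both genes, the library labelled KO replicate 1 was just above the highest wildtype library, and the other 2 KO libraries were below every wildtype library. The log2 difference was -0.13 for Enpp1 (SE 0.262, adjusted p = 0.907) and -0.25 for Ank (SE 0.249, adjusted p = 0.761). Without KO replicate 1 it was -0.69 for Enpp1 (adjusted p = 0.0765), and Ank fell by 0.78 on the log2 scale (SE 0.136, adjusted p = 0.0487), the only one of the 8 genes called in that comparison.

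Phospho1, the phosphatase that starts mineral inside matrix vesicles, was the 1 gene of the 8 above 0 in the comparison without KO replicate 1, where it did not pass the test. Its level was 6.43, 7.70 and 7.08 FPKM in KO replicates 1, 2 and 3 and 5.83, 8.01 and 3.59 FPKM in wildtype replicates 1, 2 and 3. The KO libraries lay inside the range of the wildtype libraries. The log2 difference was 0.26 (SE 0.330, adjusted p = 0.827), and 0.30 without KO replicate 1 (adjusted p = 0.730).

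Over all libraries, 0 of the 8 genes were called by edgeR (adjusted p under 0.05), where 0% of all genes tested were called. At an unadjusted p under 0.05 the count was also 0 of 8, beside 13.7% of all genes tested. DESeq2 called 0 of the 8 (5.72% of all genes). On log2(FPKM + 1), limma called 0 of the 8 and 0 of all 15373 genes tested. The fit of the 6 libraries as labelled called 0 of the 8 (3.71% of all genes), with Phex at the lowest adjusted p of 0.161. Of the 8 log2 differences 5 were below 0 and 3 above, with a median of -0.19 beside -0.016 for all genes tested.

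Without the library labelled KO replicate 1, a comparison of 1 KO sample with 3 wildtype samples in which the lone sample is assumed to vary like the others, 7 of the 8 genes were below 0. Their median was -0.81 beside -0.043 for all genes tested. Of the 8, 1 was called (2.29% of all genes tested were), and 3 had an unadjusted p under 0.05 (20.7% of all genes tested). Without KO replicates 2 and 3 the median was 0.22, with 2 of the 8 below 0 and 0 called (0.0585% of all genes tested). By a limit of 2-fold between the library labelled KO replicate 1 and the mean of the other 2 KO libraries, 3 of the 8 genes (Dmp1, Mepe and Sost) were past it, against 8.2% of all genes tested.

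**Figure D2:**
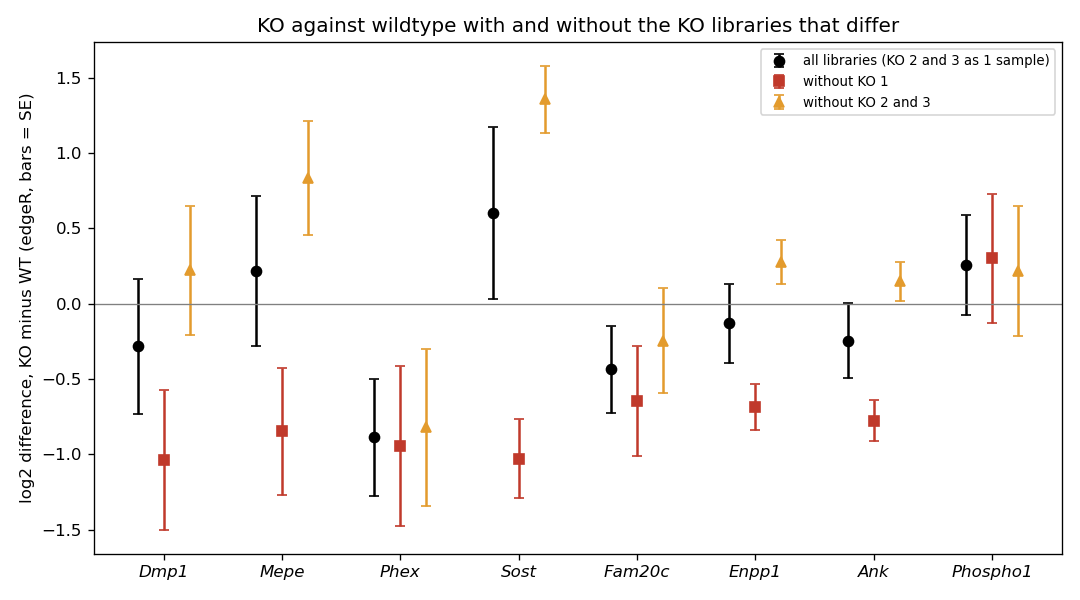
Log2 difference, KO minus wildtype, of each gene with all libraries (black circles), without KO replicate 1 (red squares) and without KO replicates 2 and 3 (orange triangles), with bars of 1 SE. Sost lay at 0.60, -1.03 and 1.36 in the 3 comparisons, while Phex lay at -0.89, -0.95 and -0.82.

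The osteocyte genes and the osteoblast genes lay on the same side of the wildtype mean in 4 of the 6 libraries, and parted in the library labelled KO replicate 1 and, less widely, in wildtype replicate 2. In these libraries Dmp1, Mepe, Phex and Sost averaged 0.47 and -0.21 on the log2 scale and the osteoblast list -0.49 and 0.22. The osteoblast list (10 genes, Col1a1 and Runx2 among them) summed to 1016 to 1153 FPKM in the KO libraries and 776 to 2302 FPKM in the wildtype libraries. The log2 ratio of the mean level of Dmp1, Mepe, Phex and Sost to that of the osteoblast list, on CPM (counts scaled to the library total), was -1.23, -3.70 and -3.74 in KO replicates 1, 2 and 3. It was -3.00, -3.26 and -2.21 in wildtype replicates 1, 2 and 3. The ratio was thus highest in the library labelled KO replicate 1 and lowest in KO replicates 2 and 3, but it is a mean of levels that Dmp1, Mepe and Sost dominate. The osteoblast genes also went different ways among the KO libraries. Col1a1 was at 105, 317 and 312 FPKM in KO replicates 1, 2 and 3, and Bglap at 326, 221 and 232 FPKM. Phex, set against Ibsp alone in FPKM, was at 0.0262 in the library labelled KO replicate 1, beside 0.0291 and 0.0255 in the other KO libraries. The wildtype libraries ranged from 0.0264 to 0.0460, so that against Ibsp the ratio of Phex was not highest in that library. Against Col1a1 it was highest there, at 0.0344, beside 0.0119 and 0.0109 in KO replicates 2 and 3. The ratios of Phex to Col1a1 in wildtype replicates 1, 2 and 3 were 0.0221, 0.0226 and 0.0330. Sost set against Col1a1, the main collagen of bone, gave a ratio of FPKM of 0.697 in the library labelled KO replicate 1. It was 0.0489 and 0.0474 in the other KO libraries. The wildtype libraries had ratios of 0.0787, 0.110 and 0.209. Every gene described here had its highest ratio to Col1a1 in the library labelled KO replicate 1, where Col1a1 itself was lowest. Against Bglap, osteocalcin, the ratio of Sost was again highest in that library, at 0.224, but KO replicates 2 and 3 (0.0701 and 0.0639) lay within the wildtype range of 0.0372 to 0.124. Dmp1 against Bglap was at 0.156 in that library, below wildtype replicate 3 at 0.163, and in KO replicates 2 and 3 Dmp1 and Mepe were above wildtype replicate 2 against both Bglap and Ibsp. The low place of KO replicates 2 and 3 therefore depended on the osteoblast gene chosen. So did the high place of KO replicate 1 for Phex and Dmp1. In bulk tissue, fewer osteocytes and less RNA per osteocyte cannot be told apart.

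**Figure D3:**
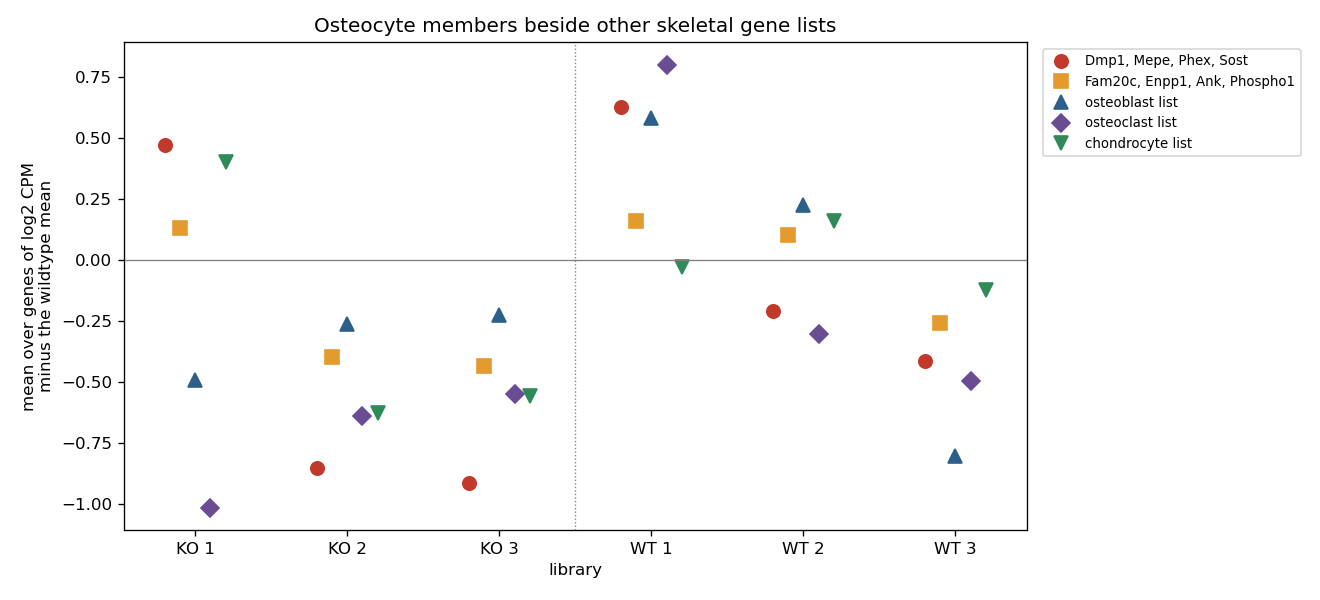
Mean over the genes of a list of log2 CPM minus the wildtype mean (vertical axis) in each of the 6 libraries (horizontal axis, KO left and wildtype right of the dotted line). The osteocyte genes (red circles) lay at 0.47 in KO replicate 1, where the osteoblast list (blue triangles) lay at -0.49, and at -0.86 and -0.91 in KO replicates 2 and 3.

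Markers of some other cells followed the groups, while those of others did not. All 7 genes of the osteoclast list were lower in KO, with sums of 371 to 426 FPKM against 505 to 1257 FPKM. All 7 of the neutrophil list were higher, with 48140 to 59867 FPKM against 25494 to 41792 FPKM, and all 7 of the B cell list were lower, with 81.7 to 130 FPKM against 261 to 290 FPKM. With all libraries, none of the 9 marker lists had a gene called by edgeR. At an unadjusted p under 0.05 (13.7% of all genes) there were 3 of 7 osteoclast, 4 of 7 neutrophil, 7 of 7 B cell, 5 of 5 adipocyte and 3 of 6 erythroid genes. DESeq2 (5.72% of all genes) called 4 neutrophil, 7 B cell, 3 adipocyte and 2 erythroid genes, and no osteoclast gene. Without KO replicate 1, the comparison in which Ank was called, edgeR (2.29% of all genes) called 7 of 7 B cell, 2 of 5 adipocyte and 1 of 7 neutrophil genes and none of the other lists. The chondrocyte list summed to 1229 FPKM in the library labelled KO replicate 1, to 542 and 548 FPKM in the other 2 KO libraries and to 572 to 738 FPKM in the wildtype libraries. Most of each sum was Prg4, at 1034, 436 and 441 FPKM in KO replicates 1, 2 and 3 and 402 to 581 FPKM in wildtype. In KO replicates 1, 2 and 3 Col2a1 was at 16.0, 12.4 and 12.6 FPKM and Col11a2 at 27.4, 31.3 and 31.5 FPKM. Of the 10 genes of the chondrocyte list 8 were tested, and its markers Matn3 and Col9a1 were near 0 in every library. The median log2 difference of the list was 0.006 with all libraries and -0.65 without KO replicate 1, where all 8 were below 0. The skeletal muscle list summed to 127 FPKM in the library labelled KO replicate 1, 4.27 and 3.43 FPKM in KO replicates 2 and 3 and 29.7 to 239 FPKM in the wildtype libraries. The hypertrophic chondrocyte list gave 113 to 154 FPKM in KO and 154 to 184 FPKM in wildtype, the erythroid list 14583 to 35663 and 41210 to 64945 FPKM, and the adipocyte list at most 47.7 and at least 68.3 FPKM. The part of these cells in the levels of the 8 genes was not tested.

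The neighbours of Dmp1 and Mepe in the SIBLING cluster differed in their pattern among the KO libraries. Ibsp, bone sialoprotein, lies between Dmp1 and Mepe and was at 137, 130 and 133 FPKM in KO replicates 1, 2 and 3, beside 237, 211 and 140 FPKM in wildtype replicates 1, 2 and 3. Spp1, osteopontin, was at 961, 461 and 468 FPKM in KO and 1320, 1118 and 834 FPKM in wildtype. Dspp, the dentin gene of the cluster, was listed at 0 in 5 libraries and at 0.0200 FPKM in wildtype replicate 3. Ibsp thus stayed level where Dmp1 and Mepe more than doubled, and Spp1 was higher in the library labelled KO replicate 1 as they were.

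The other genes of these pathways comprised 42 genes in 6 lists, of which 33 were tested. None was called by edgeR, and at an unadjusted p under 0.05 there were 1 higher and 2 lower, where 13.7% of all genes passed. DESeq2 (5.72% of all genes) and the fit of the 6 libraries as labelled (3.71%) each called 1, Furin in both cases. Of the 33 log2 differences 26 were below 0, beside 52.5% of all genes tested, with a median of -0.17 beside -0.016. Without KO replicate 1 the median was -0.50 beside -0.043, again with 26 below 0, and 1 gene, Mgp, was called (2.29% of all genes).

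The SIBLING and Gla matrix proteins (5 of 8 tested) had a median of -0.57, and -1.09 without KO replicate 1. Ibsp was at -0.52 (adjusted p = 0.406) and at -0.61 without that library. Spp1 was at -0.57 (adjusted p = 0.603) and at -1.27 without it (adjusted p = 0.0955). The osteocalcin genes Bglap and Bglap2, at -0.84 and -0.79 (-1.19 and -1.09 without KO replicate 1), are near-identical copies among which reads may be split. Without KO replicate 1, Mgp, an inhibitor of calcification in cartilage, fell by 0.87 on the log2 scale (adjusted p = 0.0471), from 0.14 with all libraries.

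The phosphate and pyrophosphate list (9 of 10 tested) had a median of -0.14, with 8 of the 9 below 0, and -0.39 without KO replicate 1, with 6 below 0. Enpp3, a relative of Enpp1, was at -0.67 (adjusted p = 0.353). Alpl, which breaks pyrophosphate down, was at -0.28 (adjusted p = 0.728), and the phosphate importers Slc20a1 and Slc20a2 were at -0.17 and -0.14. Slc20a1 was at -0.50 without KO replicate 1 (adjusted p = 0.133).

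In the FGF23 axis (4 of 6 tested, median 0.02 with all libraries and -0.13 without KO replicate 1), Fgf23 itself was at 0.215, 0.484 and 0.385 FPKM in the KO libraries and 0.354, 0.151 and 0.268 FPKM in the wildtype libraries and was too low to be tested. Furin, a protease that can cleave Fgf23, was at 10.1, 12.8 and 11.9 FPKM in KO replicates 1, 2 and 3 and at 8.33, 8.48 and 8.68 FPKM in wildtype replicates 1, 2 and 3. Its groups did not overlap, and its log2 difference was 0.42 (edgeR adjusted p = 0.214, DESeq2 adjusted p = 0.0436, and adjusted p = 0.0497 in the fit of the 6 libraries). It was 0.50 without KO replicate 1 (edgeR adjusted p = 0.0942). Vdr, the vitamin D receptor, was at -0.58 (adjusted p = 0.612), Galnt3, which shields Fgf23 from cleavage, at 0.24 (adjusted p = 0.711) and the receptor Fgfr1 at -0.19 (adjusted p = 0.864). Galnt3 was at 0.48 and Fgfr1 at -0.73 without KO replicate 1 (adjusted p = 0.231 and 0.183).

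The sclerostin receptors and Wnt targets (6 of 8 tested) had a median of -0.12, and -0.30 without KO replicate 1. Lrp5, a receptor that sclerostin binds, was at 0.23 (adjusted p = 0.464), Lrp6 at -0.15 (adjusted p = 0.782) and Lrp4 at -0.08 (adjusted p = 0.940). Tnfrsf11b, which encodes the osteoclast inhibitor osteoprotegerin, was at 45.7, 14.1 and 13.1 FPKM in KO replicates 1, 2 and 3, a split in the direction of that of Sost, and at 21.4, 36.0 and 32.3 FPKM in wildtype replicates 1, 2 and 3. The Wnt target Tcf7 was at -0.54 (adjusted p = 0.726) and the Wnt inhibitor Dkk1 at -0.42 (adjusted p = 0.798). Leaving out KO replicate 1 moved Tnfrsf11b from 0.03 to -1.18 (adjusted p = 0.113), Dkk1 to -1.12 (adjusted p = 0.314) and Lrp4 to -0.17.

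Of 5 other osteocyte genes, all tested, all 5 were below 0, with a median of -0.35, and of -0.59 without KO replicate 1. Mef2c, a factor that acts on the Sost enhancer, was at -0.75 (adjusted p = 0.380) and had its lowest level, 1.81 FPKM, in the library labelled KO replicate 1, where Sost was highest. The other 5 libraries held 4.17 to 6.50 FPKM of it. The parathyroid hormone receptor Pth1r was at -0.41 (adjusted p = 0.607), the early osteocyte marker Pdpn at -0.35 (adjusted p = 0.822) and Irx5 at -0.16 (adjusted p = 0.937). Without KO replicate 1, Mef2c was at -0.30, Pdpn at -0.79 and Irx5 at -0.76, with adjusted p of 0.461 to 0.521. Among the relatives of Fam20c and Phospho1 (4 of 5 tested, median -0.35, and -0.58 without KO replicate 1), Gask1b was at -1.20 (adjusted p = 0.289) and Fam20a, which assists Fam20c, at -0.64 (adjusted p = 0.443), while Fam20b was at 0.05 (adjusted p = 0.925) and Phospho2, the paralog of Phospho1, at -0.05 (adjusted p = 0.950). Fam20a was at -1.03 (adjusted p = 0.174) and Phospho2 at -0.13 without KO replicate 1.

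**Figure D4:**
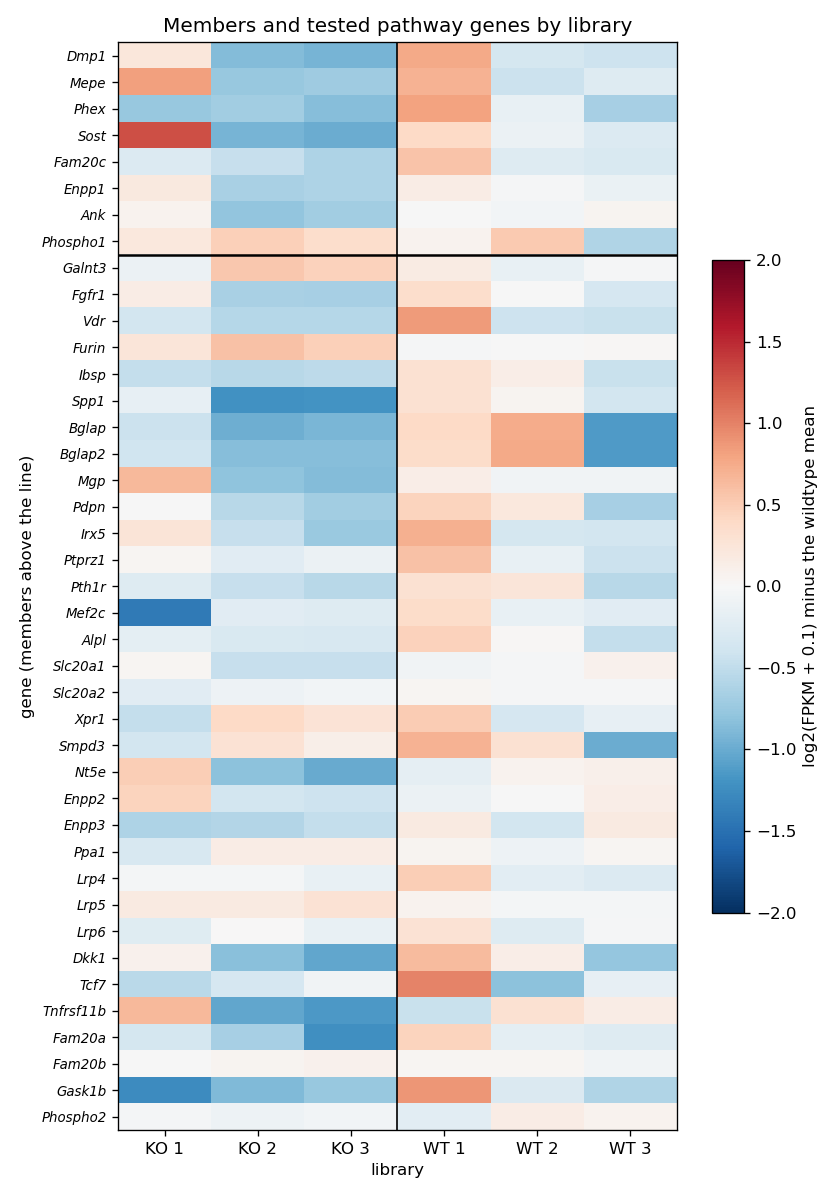
Log2(FPKM + 0.1) minus the wildtype mean (colour, red higher and blue lower, scale from -2 to 2) of the 8 genes (above the line) and the 33 tested genes of their pathways (rows) in the 6 libraries (columns). Sost and Mepe are red in KO replicate 1 and blue in KO replicates 2 and 3, whereas Phex and Ibsp are blue in all 3.

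Genes with profiles most like those of the osteocyte genes were sought among the 13314 genes whose mean reached 1 FPKM, by the root mean square difference of log2 CPM, set to 0 at the wildtype mean, over the 6 libraries. For Phex these were Pcdh18 (0.0924), Ctsk (0.1004), the protease of osteoclasts, and Mt3 (0.114). For Dmp1 they were Akr1c12 (0.156), Tmie (0.159) and Lcat (0.170), and for Mepe Tgfb2 (0.116), Irx3 (0.216) and Spsb1 (0.220). For Sost they were Hoxd8 (0.230), Ighv1-5 (0.238) and Pdcd1 (0.257), of which Ighv1-5 belongs to a family of near-identical genes. The nearest gene to Sost was thus farther away than the nearest gene to the other 3. This distance tends to grow with the range of a gene, which was widest for Sost. Ctsk was at 219, 243 and 242 FPKM in KO replicates 1, 2 and 3 and at 731, 333 and 278 FPKM in wildtype replicates 1, 2 and 3, with the same high wildtype replicate 1 as Phex.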

How the data were processed

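Articular cartilage RNA was sequenced from 3 KO and 3 wildtype libraries, grouped by the sample titles. The knocked-out gene is not reported here. Per the labels, libraries were oligo(dT)-selected and strand-specific with molecular identifiers. The submitters' processing notes name cutadapt 1.9, HISAT2 2.0.4, UMI-tools, StringTie 1.3.4d, DESeq2 and edgeR, without roles or a genome build, and positions follow GRCm38. The authors deposited 1 table with an FPKM value and an estimated (expected) count per gene and library; FPKM carries no stated scaling between libraries. The expected counts deposited were whole numbers, so rounding changed none of these. Low values heaped at 4 (6596 of them, beside 4170 at 3 and 2332 at 5), so a count was not taken as 1 read pair. Use of strand and molecular identifiers in counting was not given in the sources used here.

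Genes whose mean reached 0.5 FPKM were tested with edgeR 4.0.16 (R 4.3.3, quasi-likelihood, TMM) with Benjamini-Hochberg adjustment over all 15373. Each SE is the absolute log2 difference over the root of its F statistic. KO replicates 2 and 3 were averaged (mean counts were rounded to whole numbers) and counted as 1 sample, giving 2 KO and 3 wildtype samples. Noise between libraries was compared over genes of 200 to 50000 counts, as if each deposited count were 1 read pair, which was not established. A count of 0 allowed, at 3 counts, up to 0.0574 CPM in the shallowest library, for counting error only. Alternatives were DESeq2 1.42.0, limma 3.58.1 on log2(FPKM + 1) or log2(FPKM + 0.1), other filters and scaling, counts divided by 4, the 6 libraries as labelled, a replicate block and leaving out libraries. The fit without KO replicates 2 and 3 was added after seeing the data. Scripts were tested on simulated data.

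The genes and lists were chosen with earlier results of these data known. The text names all 8 genes, the up to 4 genes of each pathway list with the smallest unadjusted p, and the 3 nearest profiles of Dmp1, Mepe, Phex and Sost. It also names the nearest profile of Enpp1 and of Ank. The values of Ctsk, Tnfrsf11b, Mgp, Lrp4, Fgf23 and Dspp and the ratios to Col1a1, Ibsp and Bglap were chosen after they were seen. Of the listed symbols, Fam198a and Fam198b were matched as Gask1a and Gask1b through RefSeq. A count of phosphorylation motifs in the proteins was planned and was not run, as no protein table was used here. Promoters came from RefSeq (GRCm38.p6).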

Additional observations from a re-analysis of the deposited data

How the results depend on the processing

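Genes called over the whole table numbered 0 with all libraries. They numbered 21 with no filter on low values, 879 with DESeq2, 570 with the 6 libraries as labelled and 9 without KO replicates 2 and 3, and leaving out 1 library at a time gave 0 to 352, the highest without KO replicate 1. For the 8 genes, 117 of 127 values under the alternatives kept their direction and their side of the threshold. Mepe turned to -0.059 with the 6 libraries as labelled. Without KO replicates 2 and 3, Dmp1 turned to 0.22, Enpp1 to 0.28 and Ank to 0.15. Leaving out 1 library at a time gave -1.04 to 0.17 for Dmp1, -0.85 to 0.62 for Mepe, -1.15 to -0.40 for Phex, -1.03 to 0.80 for Sost, -0.64 to -0.11 for Fam20c, -0.69 to -0.08 for Enpp1, -0.78 to -0.21 for Ank (called only without KO replicate 1) and 0.01 to 0.60 for Phospho1. Fam20c was under a minimum of 5 FPKM and was not tested there. The cause was not tested.

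Deviations of same-numbered libraries from their group means correlated at -0.14, -0.11 and -0.058. Of the 3 KO libraries, 0 correlated best with the wildtype library of the same number. This check could not decide whether replicate numbers paired the samples. The KO libraries that were averaged lay close together, so their deviations could hardly each match a different wildtype library. With the replicate block, 0 genes were called (2809 at an unadjusted p under 0.05), Mepe was at -0.21 and Sost at -0.23.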
